A study of Mus musculus with 18 samples.

Results

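The aminoacyl-tRNA synthetases described here are 36 genes of the total RNA table whose products join amino acids to transfer RNAs (tRNAs). They were chosen by name, not by their values, though earlier results of these data were known. All 36 were found among the 23219 features of the table. By the compartment in which the enzymes work, 18 are cytosolic, 16 are mitochondrial, and Gars and Kars serve both. All 36 passed the filter on low values, under which 3 or more libraries must reach a level of 1, as did 11320 features.

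The RNA came from CD4 T cells of C57BL6 mice, taken from spleen and lymph nodes, in 3 groups of 3 libraries: naive cells, cells with low Hopx and cells with high Hopx, a homeodomain protein. Antibodies that deliver an antigen to dendritic cells had been given by intraperitoneal injection 5 days before collection, and the labels give this treatment for naive cells too. The labels do not say how Hopx levels were told apart, nor whether each library had its own animal; the p-values therefore reflect the spread among these libraries alone, which may be technical. A level is the number of aligned bases over a gene per megabase covered in its library. It grows with transcript length, so a gene with a higher level than another need not have more transcripts. In these bulk samples fewer cells of a type and less RNA per cell cannot be told apart.

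Each synthetase recognises 1 amino acid and the tRNAs that match it, save Eprs, which serves glutamate and proline. The charged tRNAs supply the ribosome. Mitochondria translate a small set of respiratory chain proteins on their own ribosomes, with synthetases that are encoded in the nucleus and imported. In animal cells several cytosolic synthetases are held in a multisynthetase complex by the scaffold proteins Aimp1, Aimp2 and Eef1e1. When amino acids run short, uncharged tRNA activates the kinase Eif2ak4 (GCN2), and the transcription factor Atf4 then raises many cytosolic synthetase genes.

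Depth ran from 105 to 329 megabases per library, and a level of 1 stood for 0.603 to 2.06 reads of the median length seen over barely covered features. Hopx had levels of 1.76, 0 and 1.15 in naive, 5.90, 7.49 and 7.59 in Hopx-low, and 34.2, 26.1 and 23.1 in Hopx-high libraries, in the order of the labels. CD4 T cell markers (Cd3e, Cd3d, Cd3g, Cd4, Lck, Cd28) were detected throughout, with a summed level of 3678 to 4984. Of these, Cd3g was called lower than in naive in both Hopx groups (log2 fold changes of −0.88 and −0.85; limma, adjusted p = 0.0377 and 0.0215). Markers of other cell types also differed between groups. The sum of 6 B cell markers was 9.69 to 44.6 in naive, 9.0 to 17.1 in Hopx-low and 55.0 to 89.1 in Hopx-high libraries, with Cd22 and Cd79b called higher than in naive. The sum of 5 measured monocyte and macrophage markers was 11.2 to 30.1, 8.10 to 29.3 and 39.8 to 89.9, with Lyz2 called higher. Markers of CD8 T cells summed to 126 to 149, 52.6 to 84.0 and 39.3 to 45.2, with Cd8b1 called lower in both Hopx groups (−0.98 and −1.69; limma, adjusted p = 0.00845 and 1.12e-05). Dendritic and NK cell markers summed to at most 5.43 and 4.32, with Xcr1 at 0 in every library, and 4 erythroid markers to 23.9 to 98.6 without a called gene. The part of these cells in the results on both Hopx groups was not tested.

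Promoters are shown for Aars, Iars and Tars, the cytosolic alanyl, isoleucyl and threonyl synthetases, because they hold both motifs searched, and for Ears2, the mitochondrial glutamyl synthetase that fell in Hopx-high cells. The sequences are RefSeq's on the GRCm38.p6 build, from 250 bases before to 50 after a transcript start that its promoter table gives. For Aars this start lies inside the interval annotated for the gene (chr8:111027778-111055569), not at its outer end. They lie at chr8:111033592-111033891 on the plus strand, chr13:49681880-49682179 on the plus strand, chr15:11399609-11399908 on the minus strand and chr7:122067037-122067336 on the minus strand. Capitals mark TGATGNAA, the start of the element bound by C/EBP and ATF factors such as Atf4, and CACGTG, the E-box bound by Myc among others, on either strand.
Aars: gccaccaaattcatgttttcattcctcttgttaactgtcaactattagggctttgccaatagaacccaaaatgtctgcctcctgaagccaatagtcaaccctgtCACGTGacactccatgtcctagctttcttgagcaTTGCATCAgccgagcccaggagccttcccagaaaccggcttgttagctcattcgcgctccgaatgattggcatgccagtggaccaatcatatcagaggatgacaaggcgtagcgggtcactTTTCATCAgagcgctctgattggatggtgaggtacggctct
Iars: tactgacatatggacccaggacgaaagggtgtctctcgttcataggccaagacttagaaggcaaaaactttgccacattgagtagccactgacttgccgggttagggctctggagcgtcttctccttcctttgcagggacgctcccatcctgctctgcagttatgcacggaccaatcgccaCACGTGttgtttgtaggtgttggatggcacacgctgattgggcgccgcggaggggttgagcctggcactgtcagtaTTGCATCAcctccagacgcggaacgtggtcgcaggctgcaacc
Tars: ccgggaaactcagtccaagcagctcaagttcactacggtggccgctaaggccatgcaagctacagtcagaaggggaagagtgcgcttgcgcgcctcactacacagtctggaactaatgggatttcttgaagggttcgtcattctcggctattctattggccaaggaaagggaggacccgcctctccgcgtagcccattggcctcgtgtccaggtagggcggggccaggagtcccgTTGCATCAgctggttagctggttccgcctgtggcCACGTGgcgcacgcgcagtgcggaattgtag
Ears2: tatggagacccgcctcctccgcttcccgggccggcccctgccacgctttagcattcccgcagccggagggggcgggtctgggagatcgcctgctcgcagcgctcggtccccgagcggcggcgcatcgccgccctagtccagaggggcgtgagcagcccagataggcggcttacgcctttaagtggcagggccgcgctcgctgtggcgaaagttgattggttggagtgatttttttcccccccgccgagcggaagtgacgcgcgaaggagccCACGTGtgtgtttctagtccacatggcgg
Promoters were matched for 27 of the 36 genes. TGATGNAA stood in 5 of them (Aars, Gars, Iars, Tars and Yars), or 18.5%, against 4.06% of the 27025 genes with promoters of the same length in the table. CACGTG also stood in 5 (Aars, Ears2, Farsb, Iars and Tars), or 18.5%, against 7.24%, and the motifs did not overlap in the sequences shown. Of the other synthetase genes that passed the test described below, Mars, Mars2 and Nars2 held neither motif, and Vars, Nars and Hars2 had no matched promoter. A match is a description and shows neither a binding site nor a cause.

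Against naive cells, most synthetase genes had lower levels in Hopx-high cells, where the median log2 fold change of all features was also negative (−0.29). Few changes passed the test, and with both directions counted together their share over the 36 genes did not exceed that of all features. In Hopx-low cells only Vars, the cytosolic valyl synthetase, passed (limma, adjusted p below 0.05 by Benjamini-Hochberg over all features tested), where 8.39% of all features did, 4.75% rising and 3.64% falling. In Hopx-high cells 7 of the 36 passed, or 19.4%, against 23.6% of all features: Vars rose, while Mars, Nars, Ears2, Hars2, Mars2 and Nars2 fell. Rises made up 8.41% and falls 15.1% of the features tested, beside 1 rise and 6 falls among the 36. Between Hopx-high and Hopx-low cells none of the 36 passed, against 2.14% of all features, and 7 had an unadjusted p below 0.05. Without 1 library at a time the 7 calls in Hopx-high cells became 3 to 11, with 3 left without naive replicate 1 or without Hopx-high replicate 3, and 11 without Hopx-high replicate 2.

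Vars had levels of 114, 180.2 and 173 in the naive libraries. In Hopx-low they were 279.6, 280.2 and 252, and in Hopx-high 262, 292 and 294. Every library of both Hopx groups lay above every naive library. Means ± SD were 156 ± 36.1, 271 ± 16.3 and 283 ± 18.2 (n = 3 each). The log2 fold change was 0.82 ± 0.19 (SE; limma, adjusted p = 0.00652) in Hopx-low and 0.88 ± 0.19 (limma, adjusted p = 0.00153) in Hopx-high cells. The Hopx groups differed from each other by 0.064 ± 0.19 (limma, adjusted p = 0.931). Naive replicate 1 was the lowest library, and without it the Hopx-low change was 0.61 with an adjusted p of 0.0576. The rise in Hopx-high cells kept its call under all 22 alternatives run. Vars lies at chr17:35000907-35016329 (GRCm38.p6) and no other annotated gene overlaps it.

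**Figure D1:**
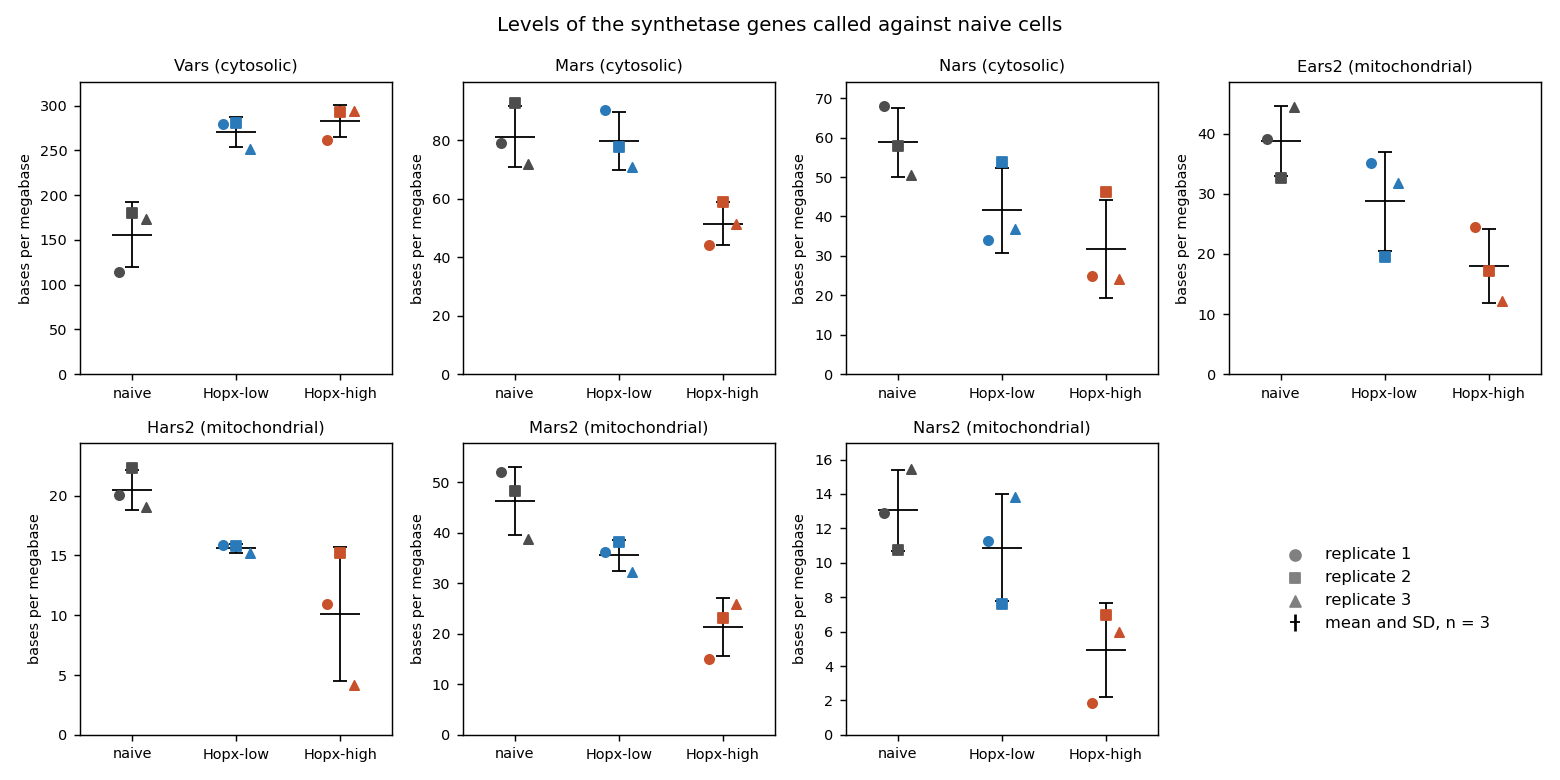
Levels (bases per megabase, vertical axis from 0) of the 7 synthetase genes that passed the test against naive cells, by group; each point is 1 library, its shape the replicate number, and bars show mean and SD over 3 libraries. Vars is above the naive libraries in both Hopx groups, while the other 6 genes are lowest on average in Hopx-high cells.

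The 2 cytosolic genes that fell in Hopx-high cells serve methionine and asparagine. Mars, the methionyl synthetase and a member of the multisynthetase complex, had levels of 79.2, 92.7 and 72.0 in naive, 90.6, 77.8 and 71.0 in Hopx-low, and 44.1, 58.7 and 51.4 in Hopx-high libraries. The Hopx-high libraries lay below all others, and naive and Hopx-low libraries overlapped. The log2 fold change from naive was −0.65 ± 0.22 (SE; limma, adjusted p = 0.0333). Mars overlaps Ddit3, a stress response factor, on chromosome 10, and the strand setting is unknown here, so their reads may be mixed; Ddit3 itself was not called (−0.39 ± 0.29; limma, adjusted p = 0.338). Nars, the asparaginyl synthetase, had levels of 68.1, 57.8 and 50.5 in naive, 33.9, 53.8 and 36.8 in Hopx-low, and 25.0, 46.2 and 24.2 in Hopx-high libraries. Its Hopx-high libraries lay below the naive ones and overlapped the Hopx-low ones. The log2 fold change from naive was −0.92 ± 0.28 (limma, adjusted p = 0.0219). The call for Mars was lost under 3 other scalings of the libraries (−0.54 to −0.43) and without naive replicate 1 or 2 or Hopx-high replicate 1 or 3 (−0.75 to −0.55 over all libraries left out in turn). That for Nars was lost without naive replicate 1, Hopx-high replicate 1 or Hopx-high replicate 3 (−1.21 to −0.76).

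The 4 mitochondrial genes that fell in Hopx-high cells were those for glutamate, histidine, methionine and asparagine. Mars2, the methionyl synthetase, had levels of 52.0, 48.3 and 38.8 in naive, 36.2, 38.2 and 32.2 in Hopx-low, and 14.9, 23.2 and 25.8 in Hopx-high libraries. The 3 groups did not overlap. Its log2 fold change in Hopx-high against naive cells was −1.11 ± 0.27 (SE; limma, adjusted p = 0.00531) and kept its call under all 22 alternatives. Against Hopx-low cells it was −0.74 ± 0.27 and not called (limma, adjusted p = 0.210). Mars2 lies at chr1:55237177-55240058.

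Ears2 loads glutamate onto its own tRNA and also onto the mitochondrial tRNA for glutamine, where an amidotransferase then converts it. Its levels were 39.1, 32.7 and 44.4 in naive, 35.2, 19.5 and 31.7 in Hopx-low, and 24.5, 17.1 and 12.3 in Hopx-high libraries. Hopx-high libraries lay below every naive library and overlapped the Hopx-low ones. The log2 fold change from naive was −1.11 ± 0.31 (SE; limma, adjusted p = 0.0132), and the call was lost without Hopx-high replicate 3 or without naive replicate 3 (−1.35 to −0.88 over all libraries left out in turn). Nars2, the asparaginyl synthetase, had levels of 12.9, 10.8 and 15.5 in naive, 11.2, 7.59 and 13.8 in Hopx-low, and 1.84, 6.98 and 5.98 in Hopx-high libraries. Its Hopx-high libraries lay below all others, with a log2 fold change from naive of −1.36 ± 0.43 (limma, adjusted p = 0.0255). The call was lost without naive replicate 1, naive replicate 3 or Hopx-high replicate 1 (−1.64 to −0.90 over all libraries left out in turn).

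Hars2, the histidyl synthetase, had levels of 20.1, 22.3 and 19.0 in naive, 15.8, 15.8 and 15.2 in Hopx-low, and 10.9, 15.2 and 4.13 in Hopx-high libraries. Both Hopx groups lay below the naive libraries and overlapped each other. The log2 fold change in Hopx-high cells was −1.10 ± 0.38 (SE; limma, adjusted p = 0.0404), and it was the least stable of the 7 calls, kept under 7 of 22 alternatives and lost without any 1 naive library, Hopx-low replicate 3, Hopx-high replicate 1 or Hopx-high replicate 3 (−1.46 to −0.62 over all libraries left out in turn). Its lowest value comes from Hopx-high replicate 3, where a level of 1 stands for 0.616 reads, so few reads lie behind it. Hars2 adjoins and slightly overlaps Hars, the cytosolic histidyl gene, which was not called (−0.32 ± 0.24; limma, adjusted p = 0.352).

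The other members are given by their counts. Of the 36 genes, 11 had a positive and 25 a negative log2 fold change in Hopx-low against naive cells, and 6 and 30 in Hopx-high against naive cells. The median of all features tested was negative too, and 19 and 25 of the 36 lay below it in these 2 comparisons. Groups of libraries did not overlap for 7 genes in Hopx-low against naive (29.2% of all features), for 15 in Hopx-high against naive (39.1%) and for 5 in Hopx-high against Hopx-low cells (16.7%). The comparisons with naive cells share the naive libraries. Medians over the 36 genes were −0.18, −0.42 and −0.28 in these comparisons, and those over all features tested were −0.16, −0.29 and −0.10. Scaling by upper quartiles moved the median of all features in Hopx-high against naive cells to −0.08 and that of the synthetases to −0.20. Under that scaling 7 genes again passed, but 3 rose (Vars, Fars2 and Qars) and 4 fell (Ears2, Mars2, Nars and Nars2), and 10 had a positive and 26 a negative fold change.

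Fars2, the mitochondrial phenylalanyl synthetase, had levels of 34.6, 45.3 and 40.8 in naive, 59.7, 60.4 and 61.0 in Hopx-low, and 64.7, 52.2 and 63.1 in Hopx-high libraries. Every library of both Hopx groups lay above every naive library. Its log2 fold changes of 0.58 ± 0.23 and 0.57 ± 0.23 (SE) missed the threshold (limma, adjusted p = 0.123 and 0.0729). With totals that leave out Lars2 they were 0.65 and 0.68, and the latter passed (limma, adjusted p = 0.0221). Fars2 was singled out after its values were seen, as were the genes in the next sentence.

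Eprs, the glutamyl-prolyl synthetase, and Iars lay just outside the threshold in Hopx-high cells (−0.84 ± 0.31 and −0.83 ± 0.31; limma, adjusted p = 0.0525 and 0.0530). Rars2, the mitochondrial arginyl synthetase, had a log2 fold change of −1.56 ± 0.54 in Hopx-low cells (limma, adjusted p = 0.0822) at levels of 0 to 8.91. Sars, the cytosolic seryl synthetase, had levels of 280.3, 385 and 276 in naive, 255, 315 and 319 in Hopx-low, and 277, 219 and 208 in Hopx-high libraries. The groups overlapped and it was not called.

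Gars and Kars, the glycyl and lysyl synthetases used in both compartments, passed in no comparison. Gars had levels of 68.5, 59.0 and 74.3 in naive, 55.0, 96.3 and 87.8 in Hopx-low, and 66.1, 86.5 and 59.2 in Hopx-high libraries. Kars had levels of 92.3, 92.1 and 83.8 in naive, 50.8, 154 and 132 in Hopx-low, and 81.9, 89.7 and 82.2 in Hopx-high libraries. All groups overlapped for both genes, and the spread was widest in Hopx-low cells, where replicate 1 was lowest for both. Without that library, Kars was called higher in Hopx-low than in naive cells (log2 fold change 0.66) and lower in Hopx-high than in Hopx-low cells (−0.74). In all 9 libraries the change was 0.18 ± 0.29 (SE; limma, adjusted p = 0.759).

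**Figure D2:**
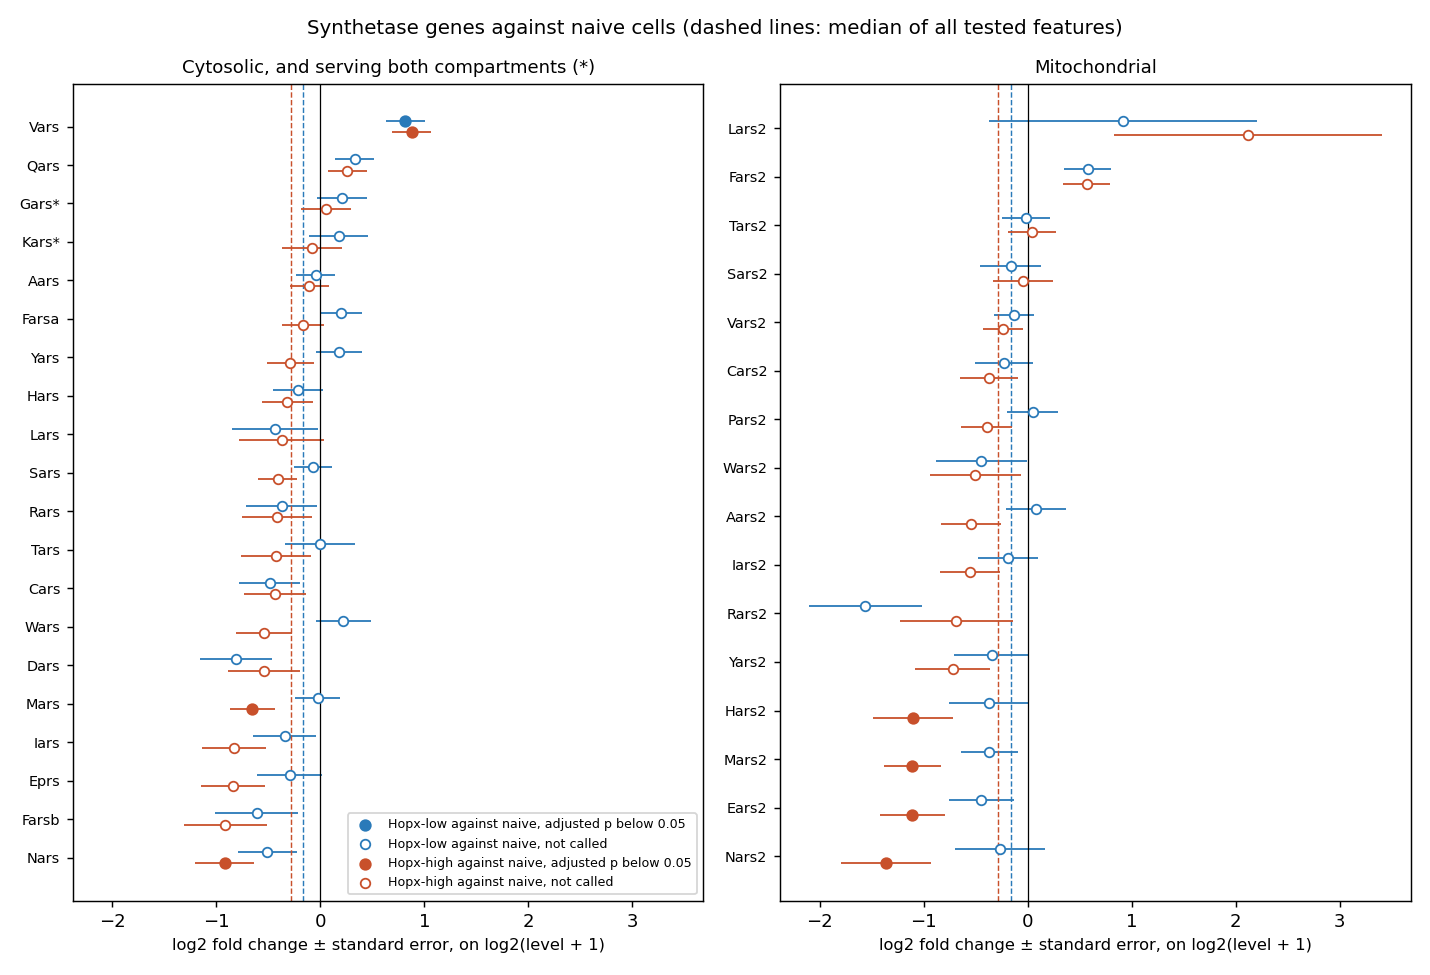
Log2 fold changes (horizontal axis, on log2(level + 1)) of the 36 synthetase genes in Hopx-low and Hopx-high against naive cells, with standard errors; filled points passed the test and dashed lines mark the medians of all tested features, −0.16 and −0.29. Most points are left of 0, Vars stands to the right in both comparisons, and Lars2 has the widest error.

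Cytosolic and mitochondrial genes were then set side by side, as a description. In Hopx-low against naive cells 1 of 18 cytosolic and 0 of 16 mitochondrial genes passed. At an unadjusted p below 0.05 there were 2 in each set. In Hopx-high against naive cells the cytosolic set had 1 rise and 2 falls and the mitochondrial set 4 falls. These are 16.7% and 25.0% of the sets, where 23.6% of all features passed. By direction, rises made up 8.41% and falls 15.1% of all features, and every mitochondrial call was a fall. The median log2 fold changes in Hopx-high against naive cells were −0.42 for cytosolic and −0.52 for mitochondrial genes (−0.54 without Lars2). In Hopx-low against naive cells they were −0.14 and −0.21 (−0.23 without Lars2), and in Hopx-high against Hopx-low cells −0.32 and −0.25 (−0.36 without Lars2). No test was run on the difference between the 2 sets.

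The summed level of the 18 cytosolic genes was 1477 ± 137 in naive libraries, against 1571 ± 170 in Hopx-low and 1347 ± 113 in Hopx-high (SD, n = 3 each). Its ranges, 1390 to 1635, 1392 to 1729 and 1243 to 1468, overlapped. The summed level of the 15 mitochondrial genes other than Lars2 was 588 ± 16.9, 552 ± 47.9 and 471 ± 28.3. It ran from 577 to 608 in naive libraries, 498 to 591 in Hopx-low and 443 to 500.0 in Hopx-high libraries, so Hopx-high lay below naive and met the lowest Hopx-low library. The ratio of the mitochondrial to the cytosolic sum was 0.400 ± 0.0247 in naive libraries, against 0.352 ± 0.00848 in Hopx-low and 0.351 ± 0.0282 in Hopx-high. The highest Hopx-high ratio, 0.376, exceeded the lowest naive one, 0.372, while all Hopx-low ratios lay below. The totals behind these levels include Lars2. It took 17.98% of Hopx-low replicate 1 and 18.9% of Hopx-high replicate 3, each the lowest library of its group in both sums. Leaving Lars2 out of the totals raises levels there by 0.29 and 0.30 on the log2 scale, and by 0.0076 to 0.098 elsewhere. Whether the Hopx groups meet in these sums therefore depends on the scaling. A ratio within a library does not change with the scaling of its total. Genes with long transcripts weigh more in these sums, and no test was run on them.

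**Figure D3:**
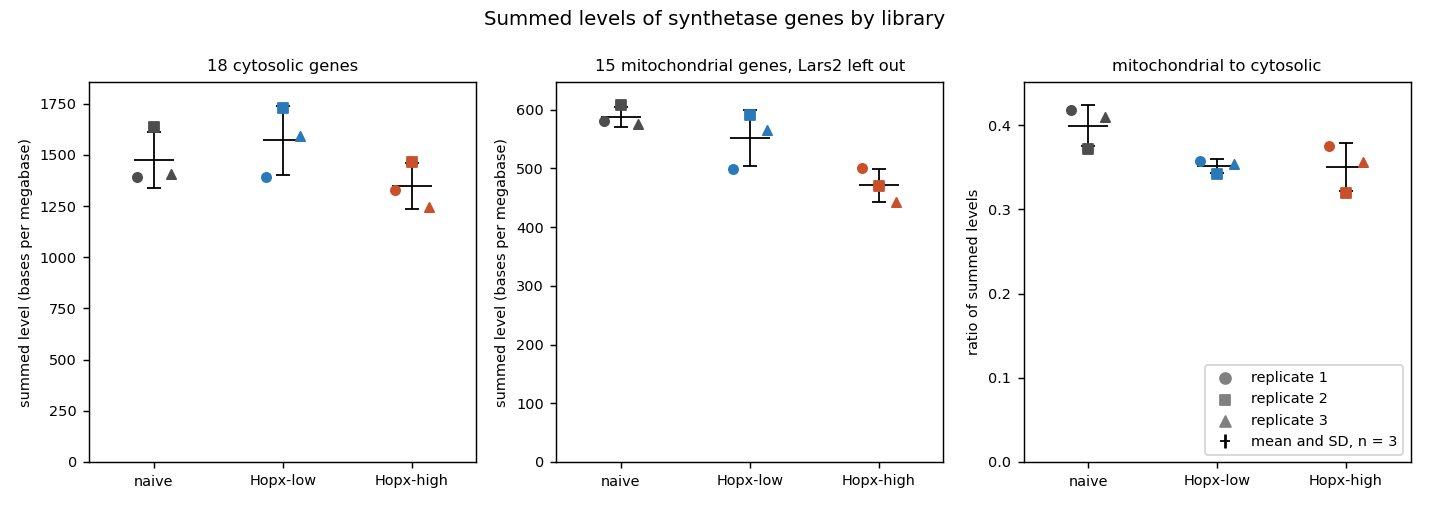
Summed levels (bases per megabase) of the 18 cytosolic genes and of the 15 mitochondrial genes other than Lars2, and their ratio, by group; points are libraries and bars show mean and SD over 3. On totals that include Lars2, the mitochondrial sum is 443 to 500.0 in Hopx-high and 577 to 608 in naive libraries. The cytosolic sums of all groups overlap on those totals.

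Split by structure, 4 of 18 class I genes passed in Hopx-high against naive cells (Vars, Ears2, Mars and Mars2) and 3 of 17 class II genes (Hars2, Nars and Nars2), or 22.2% and 17.6% where 23.6% of all features did, with medians of −0.47 and −0.39. Class I and class II enzymes have unrelated catalytic folds, and Eprs, which holds both, was left out of this split. Of the 8 genes in the multisynthetase complex (Dars, Eprs, Iars, Kars, Lars, Mars, Qars and Rars) Mars alone passed in Hopx-high against naive cells (12.5%), with a median of −0.48. None passed in the other comparisons, where 1 gene each had an unadjusted p below 0.05.

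Lars2, the mitochondrial leucyl synthetase at chr9:123366927-123462675, stood apart from all other members by its coverage. The annotated gene Gm46137 overlaps it and is not among the measured features, so bases over Lars2 may not all be its own. Lars2 took 5.27%, 3.23% and 0.525% of all covered bases in the naive libraries. The shares were 17.98%, 1.32% and 2.54% in Hopx-low, and 6.55%, 5.93% and 18.9% in Hopx-high libraries. Every Hopx-high library lay above every naive one, the Hopx-low libraries overlapped both groups, and Hopx-low replicate 1 and Hopx-high replicate 3 were far above the others. The highest level was 35.9 times the lowest, where the median of such ratios over the other members was 2.46. Lars2 was the feature with most bases in 7 of 9 libraries. The log2 fold changes, each with an SE of 1.29, were 0.92 from naive to Hopx-low, 2.12 from naive to Hopx-high and 1.20 from Hopx-low to Hopx-high cells (limma, adjusted p = 0.726, 0.284 and 0.783). The value against naive fell to −0.18 in Hopx-low cells when both libraries were left out.

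The 2 libraries richest in Lars2 were also the shallowest, with 105 and 110 megabases where the other 7 had 206 to 329. In absolute bases Lars2 ranged from 1.60 to 15.3 megabases in those 7 and was 18.9 and 20.7 megabases in the 2. Leaving Lars2 out of the totals raised every other level by 0.29 and 0.30 on the log2 scale in these 2 libraries and by 0.0076 to 0.098 in the others. It made up 90.1% to 99.8% of the summed level of the mitochondrial set. Without both libraries 4 synthetases passed in Hopx-high against naive cells (Vars, Mars, Mars2 and Nars2) in place of 7, and in Hopx-low cells Vars and Kars did.

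**Figure D4:**
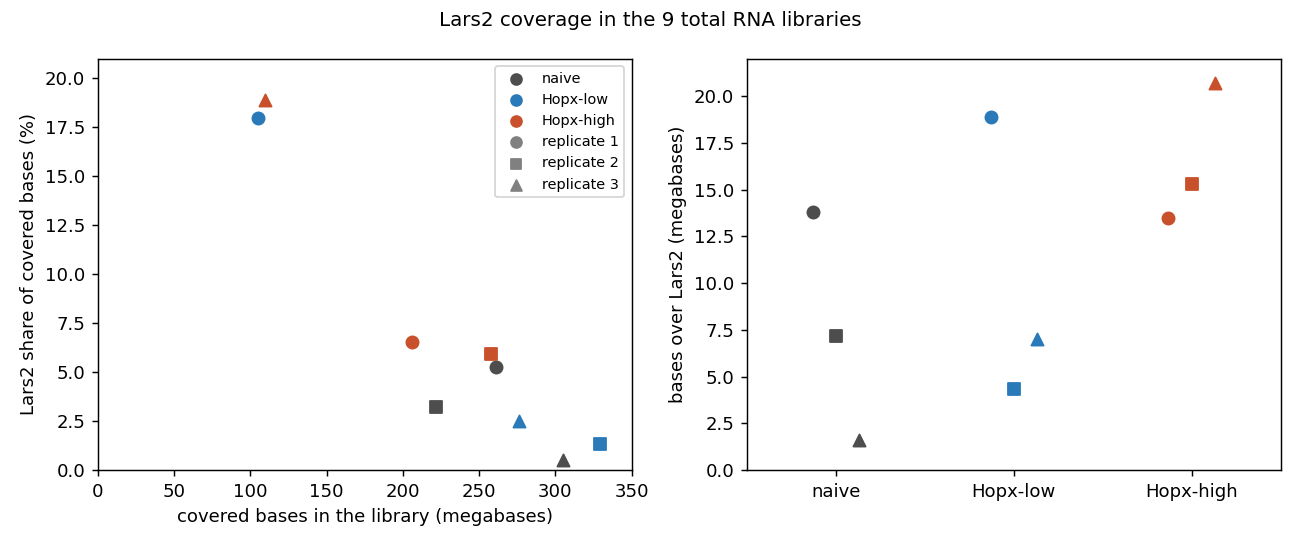
Left, share of covered bases that lie over Lars2 (percent) against the covered bases of each library (megabases); right, megabases over Lars2 by group; each of the 9 points is a library. The 2 shallowest libraries have shares of 17.98% and 18.9%, and the groups overlap on the right.

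The 5 features whose log2 level followed Lars2 most closely over the 9 libraries were Sass6 (Pearson r = 0.948), Fam129b (0.930), Srsf9 (0.929), Snord47 (0.925) and Mir5109 (0.909). They were picked as the highest of 11320 values, share the 9 libraries and their depths with Lars2, and none passed in any comparison. Snord47, a small nucleolar RNA, had levels of 174, 118 and 33.5 in naive, 261, 97.3 and 93.0 in Hopx-low, and 302, 161 and 253 in Hopx-high libraries. Naive replicate 3 was lowest for it, as for Lars2. The r with Lars2 was negative for 31 of the 35 other synthetases, with a median of −0.43 where the median of all features was −0.36; Lars2 is part of the total that scales every level. Of the listed ribosomal and structural RNAs the table holds only Rmrp and Rpph1, RNA parts of RNase MRP and RNase P. The ribosomal RNAs are absent under the names sought, so their coverage could not be described. Neither was called in any comparison and neither had an unadjusted p below 0.05, with log2 fold changes of −0.22 to 0.37.

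None of the 3 scaffold genes of the multisynthetase complex passed in any comparison; against naive an unadjusted p below 0.05 was seen for 0 in Hopx-low cells and for 1 in Hopx-high cells, and for 2 between the Hopx groups. Eef1e1 had levels of 20.4, 23.9 and 12.9 in naive, 19.1, 33.9 and 19.3 in Hopx-low, and 9.41, 9.70 and 10.5 in Hopx-high libraries. The Hopx-high libraries lay below all others, with log2 fold changes of −0.85 ± 0.34 from naive and −1.16 ± 0.34 from Hopx-low (SE; limma, adjusted p = 0.0772 and 0.0917). Aimp2 was at −0.32 and −0.69 in these comparisons (limma, adjusted p = 0.406 and 0.246), and Aimp1 at −0.27 and −0.010. Tarsl2, a threonyl synthetase gene that is not among the 36, passed in none. The 4 genes for proofreading of charged tRNA and 5 measured genes for other routes of charging, such as the mitochondrial amidotransferase, gave no call either, with at most 1 gene of a list at an unadjusted p below 0.05.

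The amino acid response list holds 23 genes that act upstream of Atf4, or that Atf4 or shortage of amino acids acts through or on. Of these, 18 were tested, and Eif2ak4 was not called in any comparison. In Hopx-low against naive cells 2 rose (Phgdh and Shmt2) and Trib3 fell, and in Hopx-high against naive cells 4 rose (Atf5, Phgdh, Psat1 and Sesn2) and 3 fell (Atf4, Eif2ak3 and Trib3). These are 16.7% and 38.9% of the genes tested, where 8.39% and 23.6% of all features passed. The list's medians were 0.23 and 0.14, where all features had −0.16 and −0.29. With totals that leave out Lars2, by upper quartiles or by quantiles, 4 rose and 1 fell in Hopx-low, and 7 rose and 3 fell in Hopx-high cells. These scalings moved other genes upward too. The median of the 36 synthetases in Hopx-high against naive cells went from −0.42 to −0.31, −0.20 and −0.18. The added rises therefore cannot be read as particular to this list. None passed between Hopx-high and Hopx-low cells (4 at an unadjusted p below 0.05), but Atf4 and Ppp1r15a were called lower when both libraries richest in Lars2 were left out. Genes of the list thus moved both ways.

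Trib3, a pseudokinase that Atf4 raises and that restrains it in turn, had levels of 15.4, 27.9 and 29.3 in naive, 4.19, 10.5 and 4.94 in Hopx-low, and 3.20, 2.85 and 0.720 in Hopx-high libraries. The 3 groups did not overlap. Its log2 fold change was −1.78 ± 0.46 in Hopx-low (SE; limma, adjusted p = 0.0163) and −3.01 ± 0.46 in Hopx-high cells (limma, adjusted p = 4.48e-05). Atf4 itself had levels of 222, 286 and 319 in naive, 151, 309 and 304 in Hopx-low, and 121, 165 and 174 in Hopx-high libraries. Hopx-high libraries lay below the naive ones (−0.84 ± 0.24; limma, adjusted p = 0.0134), and Hopx-low replicate 1 was as low as they were. Atf4 is controlled largely at translation, which RNA levels do not show.

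Phgdh and Psat1 catalyse the opening steps of serine synthesis, and Shmt2 turns serine into glycine in mitochondria. Phgdh had levels of 56.4, 47.3 and 65.4 in naive, 101, 98.0 and 97.7 in Hopx-low, and 96.1, 84.2 and 100.3 in Hopx-high libraries. Both Hopx groups lay above the naive libraries, by 0.81 ± 0.21 and 0.73 ± 0.21 on the log2 scale (SE; limma, adjusted p = 0.0137 and 0.0133). Psat1 rose by 1.22 ± 0.29 in Hopx-high cells (limma, adjusted p = 0.00369), and Shmt2 by 1.04 ± 0.21 in Hopx-low cells (limma, adjusted p = 0.00206). Sesn2, a leucine sensor of the mTORC1 pathway, had levels of 8.15, 12.8 and 13.9 in naive, 24.8, 19.8 and 21.3 in Hopx-low, and 29.7, 32.9 and 28.4 in Hopx-high libraries. It rose by 1.34 ± 0.31 in Hopx-high cells (limma, adjusted p = 0.00279), and the 3 groups did not overlap. Asns, the asparagine synthetase, Chac1 and Nupr1 were at or near 0 in every library, at most 0.682.

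**Figure D5:**
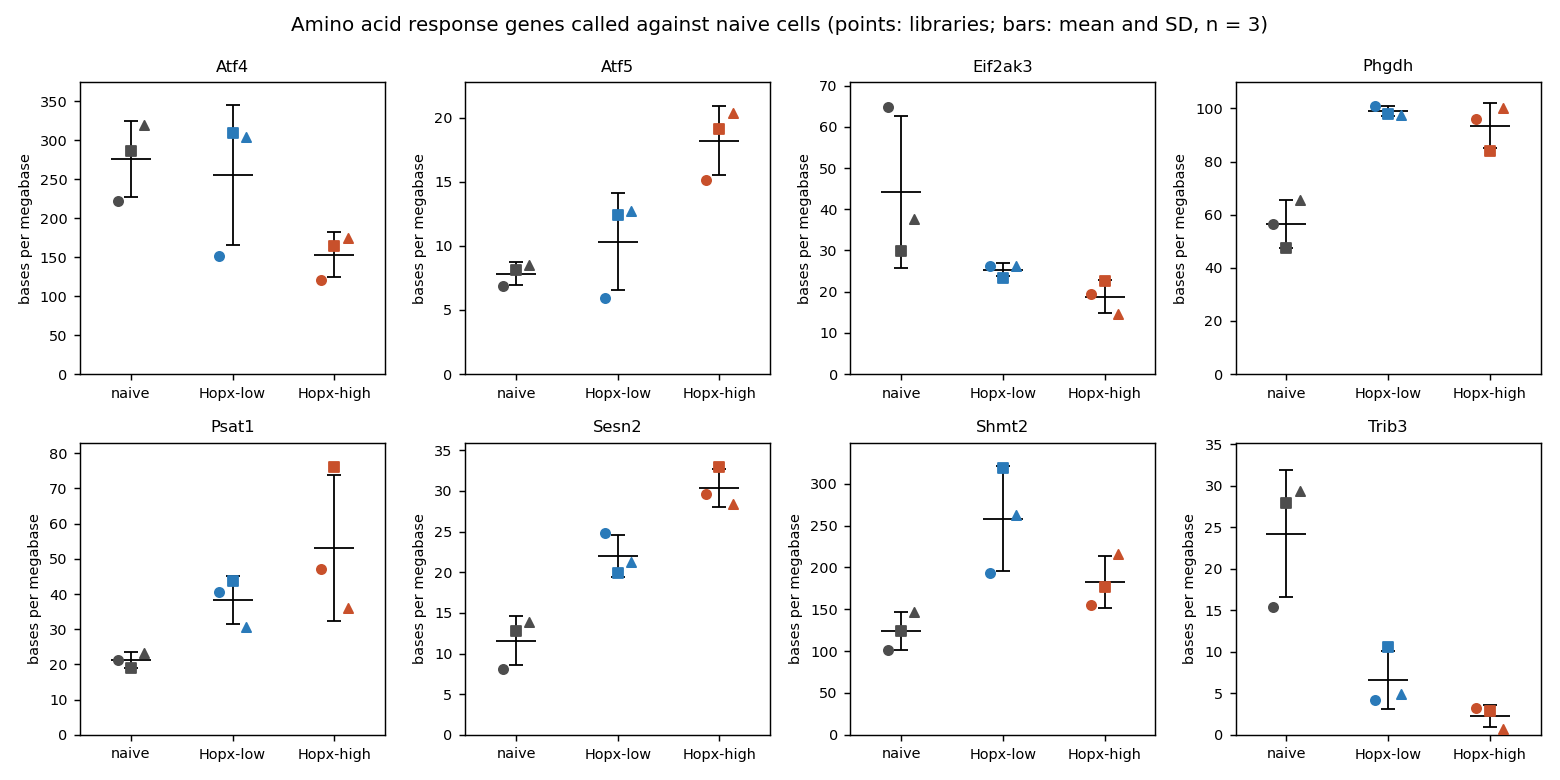
Levels (bases per megabase, vertical axes from 0) of the 8 amino acid response genes that passed against naive cells in either comparison; circles, squares and triangles are replicates 1, 2 and 3, and bars show mean and SD over 3 libraries. Phgdh, Psat1, Sesn2 and Shmt2 lie above naive in both Hopx groups, and Trib3 lies below.

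Other parts of the translation machinery gave few calls. These were lists of cytosolic translation factors, mitochondrial translation factors and mitochondrial ribosomal proteins. In Hopx-low against naive cells 4.55%, 0% and 1.32% of them passed, where 8.39% of all features did. In Hopx-high against naive cells 4.55%, 10% and 5.26% passed, where 23.6% of all features did. Of 22 cytosolic translation factors Eif5a, a factor that relieves stalled ribosomes, rose in Hopx-low (1.32 ± 0.20 SE; limma, adjusted p = 8.36e-05) and in Hopx-high cells (0.87 ± 0.20; limma, adjusted p = 0.00300). Its levels were 283, 347 and 515 in naive, 713, 1087 and 1022 in Hopx-low, and 632, 715 and 684 in Hopx-high libraries, with every Hopx library above the naive ones. Of 10 mitochondrial translation factors Mtif3, an initiation factor, fell in Hopx-high cells (−1.04 ± 0.29; limma, adjusted p = 0.0125). Of 76 mitochondrial ribosomal protein genes Mrps6 rose in Hopx-low cells (1.75 ± 0.25; limma, adjusted p = 4.62e-05). In Hopx-high cells Mrps6 (2.14), Mrpl45 (1.09) and Mrps16 (0.97) rose and Mrps18c fell by 1.51 on the log2 scale. Their median in Hopx-high against naive cells was −0.18, where that of the mitochondrial synthetases was −0.52 and that of all features −0.29. None of these 3 lists had a call between Hopx-high and Hopx-low cells, against 2.14% of all features. In that comparison 4, 1 and 4 genes had an unadjusted p below 0.05.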

How the data were processed

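RNA, extracted by Trizol and mirVana, was sequenced as Ion Torrent libraries after ribosomal RNA depletion, per the labels' protocols. The submitters' processing notes name mm10 and bedtools. Not given in the sources used here are the aligner, annotation, strand setting and multi-mapping rule, so reads of overlapping genes or close copies may be mixed. The authors deposited a signal per feature and library. From the values, each deposited signal equals aligned bases plus 1, scaled to the mean library total: divided by the smallest value of its column, 100% came out whole within 1e-06. These are bases, not reads, so no count test was used.

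Values were turned back into bases per megabase covered. Features that reached a level of 1 in 3 or more libraries were taken to log2(level + 1), so fold changes understate those of low genes, and tested with limma 3.58.1 (lmFit, eBayes with trend and robust; R 4.3.3) over all 9 libraries, with Benjamini-Hochberg adjustment. The code was tested on simulated data. Also used were matplotlib 3.10.9, numpy 2.4.6, pandas 2.3.3 and Python 3.11.15. Positions and promoters are RefSeq's on GRCm38.p6, the mm10 build, matched by symbol for 36 and 27 genes; Mars is Mars1 there. At most 0.0651% of features had equal coverage in libraries of a group, so none was counted as deposited more than once. The small RNA table was not used.

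The members and gene lists were chosen with earlier results of these data known, so no list was tested; lists are described by counts and medians. Values were given for each called member, Lars2, Gars, Kars and the cytosolic member with most bases over all libraries (Sars), for up to 4 called genes of a list and comparison, for the scaffold genes and for the 5 features most like Lars2. The alternatives were 3 other scalings, the deposited scale, pseudocounts of 0.1 and 5, no filter and a filter of 5, limma without trend and robust settings, the replicate block, the 6 libraries compared, libraries left out and adjusted p below 0.1. Scalings and left-out libraries for the amino acid response list were added after the data were seen. Values of a further gene of the lists are not reported here.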

Additional observations from a re-analysis of the deposited data

How the results depend on the processing

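Vars and Mars2 kept their calls in Hopx-high against naive cells under all 22 alternatives, Ears2 and Nars2 under 18, Nars under 16, Mars under 13 and Hars2 under 7; no called gene changed direction. In Hopx-low against naive cells, 2 synthetases passed in place of 1 with upper-quartile scaling, quantile normalization, both libraries richest in Lars2 left out or adjusted p below 0.1, and 0 without trend and robust settings. Leaving out each library gave 0 to 2 (0 without naive replicate 1). In Hopx-high against naive cells, 4 passed in place of 7 without trend and robust settings and without both libraries richest in Lars2, 2 with only replicates 1 and 2, and 11 at adjusted p below 0.1. Leaving out each library gave 3 to 11: 3 (Ears2, Mars2 and Vars) without naive replicate 1, 3 (Mars2, Nars2 and Vars) without Hopx-high replicate 3, and 11 without Hopx-high replicate 2. Between Hopx-high and Hopx-low cells the range was 0 to 1. Same-numbered deviations from group means correlated at −0.13 to 0.19, and others at −0.15 to 0.21. Of 18 best matches, 10 had the same number. Between Hopx-low and Hopx-high libraries same-numbered values were 0.19, 0.14 and 0.061, and the others −0.15 to 0.057. These values do not settle whether the replicate numbers pair the libraries, which the main fit treated as unpaired. With the replicate block 1 synthetase passed in Hopx-low cells against naive, 8 in Hopx-high cells against naive, and 0 between the Hopx groups.

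Signs reversed only for changes that were not called. For Lars2 in Hopx-low against naive cells the value without both rich libraries was −0.18, and leaving out each library gave −0.18 to 1.70. In the same comparison Mars was at 0.080, 0.028 and 0.043 with upper-quartile scaling, quantile normalization and totals without Lars2 (−0.12 to 0.072 with each library left out). Sars was at 0.035 with upper-quartile scaling and 0.033 without both rich libraries (−0.16 to 0.084), and Kars at −0.059 with only replicates 1 and 2 (−0.12 to 0.66). In Hopx-high against naive cells Kars was at 0.15, 0.11 and 0.038 under the 3 scalings, and Gars at −0.097 to 0.17 with each library left out. In Hopx-high against Hopx-low cells, with only replicates 1 and 2, Vars was at −0.016 and Gars at 0.054, and with each library left out Gars was at −0.39 to 0.0041 and Kars at −0.74 to 0.045. The causes were not tested. Depth limits Rars2, Nars2 and Hars2, where a level of 1 stands for 0.603 to 2.06 reads.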
